A study of Homo sapiens with 12 samples.

Results

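The cytoplasmic ribosomal protein genes encode the protein subunits of the ribosome that translates nuclear mRNAs. They were taken as the protein-coding genes whose symbol is RPL or RPS followed by a number, together with RPLP0, RPLP1, RPLP2 and RPSA and without RPL22 and RPL22L1, which gave 83 of the 58735 annotated genes: 51 of the large subunit and 32 of the small subunit. The choice used names and gene class and no measured value. Poly(A) RNA-Seq was carried out on HEK293T cells, a human embryonic kidney line that carries the SV40 large T antigen, in 4 groups of 3 libraries each. The groups were the solvent control DMSO, a clickable electrophilic purine (CEP, the probe AHL-Pu-1, 25 µM for 1 h), 4-thiouridine (4SU, 100 µM for 16 h), and CEP+4SU with both at these doses and times. The genotype was given as wild type throughout. The treatment label was the same text for every library and also described ultraviolet crosslinking after 4SU labeling, so which groups were irradiated cannot be read from it, and it gave the CEP dose in mM where the design text and the methods gave µM. The comparison asked whether the labeling conditions of a chemical proteomics experiment change the transcriptome, here in the genes for the ribosome itself. A single cell line was used, and apart from the words "independent replicates" nothing in the labels tied the libraries to separate cultures, so p-values measure the spread between these libraries.

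A ribosomal protein mRNA is usually short, abundant and stable, because every growing cell keeps making ribosomes. Most of these mRNAs start at a cytidine followed by a run of pyrimidines, the 5′ terminal oligopyrimidine (TOP) motif, through which the LARP1 protein and mTOR signaling set their translation together. Several members have roles off the ribosome: RPL5 and RPL11 bind the p53 ligase MDM2 when assembly is disturbed, and RPS27A is made as a fusion to ubiquitin. 4SU is a uridine analog that cells build into new RNA, and CEP is a purine-based electrophile that reacts with protein cysteines.

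The start motif separated these genes from most others and is shown for 10 members that the results turn on or that belong to paralog pairs. RefSeq promoter windows (GRCh38.p14) of 250 bases before to 50 bases after a gene's start were held for 66 of the 83 members. The first base was C and the first 5 bases were all C or T at a start of 45 of these members (68.18%), against 947 of 14896 protein-coding genes (6.357%). The rule was met by 6 of 69 genes for mitochondrial ribosomal proteins (8.696%) and by 10 of 47 genes for translation initiation factors (21.28%). The initiation factor list was taken by symbol, as protein-coding genes named EIF followed by a digit. The median of the longest pyrimidine run at the start was 7 bases over the members and 0 over all genes. Each line gives 10 genomic bases before the start and the first 20 transcribed bases, and capitals mark the run of C and T that begins at the start:
RPS3: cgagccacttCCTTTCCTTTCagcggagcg
RPLP1: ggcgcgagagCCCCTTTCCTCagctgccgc
RPL29: cagcccctttCTCTTCCggttctaggcgct
RPL36A: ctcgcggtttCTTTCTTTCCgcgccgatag
RPS27: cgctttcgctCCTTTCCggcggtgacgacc
RPL3: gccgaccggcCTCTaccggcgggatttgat
RPL36AL: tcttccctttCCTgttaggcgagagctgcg
RPL4: cgggagtggtaagcacttccttttcctgtg
RPL7L1: gtgcggcgccgtagctaggagcggacgcca
RPS27L: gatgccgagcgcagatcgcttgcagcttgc
The first 5 met the rule and the last 5 did not, and the last 5 include 3 genes of paralog pairs (RPL36AL, RPL7L1 and RPS27L) whose starts had a run of 3, 0 and 0 pyrimidines. On the plus strand these windows lie at chr11:75399508-75399537 (RPS3), chr15:69452808-69452837 (RPLP1), chrX:101391001-101391030 (RPL36A), chr1:153990752-153990781 (RPS27) and chr6:42879606-42879635 (RPL7L1). On the minus strand they lie at chr3:51995876-51995905 (RPL29), chr22:39319604-39319633 (RPL3), chr14:49620607-49620636 (RPL36AL), chr15:66504836-66504865 (RPL4) and chr15:63157458-63157487 (RPS27L). A RefSeq start is an annotated position, so a run that is absent there says only that these letters are not at that position. In the whole window, on either strand, the letters CGGAAG (the core bound by ETS factors) were found for 65.15% of the members and 30.12% of all genes, and for 55.07% of the mitochondrial ribosomal protein genes and 42.55% of the initiation factor genes counted above. A YY1 motif, AAGATGGC, was found for 9.091% of the members and 4.787% of all genes, but for 30.43% of the mitochondrial ribosomal protein genes and 8.511% of the initiation factor genes. A GC box, read on either strand as CCCGCCC, was less common among the members (34.85%) than among all genes (51.34%), the mitochondrial ribosomal protein genes (50.72%) and the initiation factor genes (57.45%).

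The libraries held 16569114 to 24644734 read counts in genes, and the members took 5.616 to 7.003% of them. The lowest share was that of CEP replicate 2 and the highest that of CEP replicate 3. The share was 6.68 to 6.92% in DMSO, 6.17 to 6.79% with 4SU and 5.99 to 6.52% with CEP+4SU, and it was 6.52% in CEP replicate 1. CEP replicate 2 and CEP+4SU replicate 2 stood apart in 1 more way: they had a count in 22230 and 22627 genes, against at least 24376 in each of the other libraries. Some medians and calls are therefore also given without 1 or both of them. The counts of members whose groups do not overlap are given only with them included. The same holds for the subunit, start-motif and gene list medians and for the correlations with GC content. The cells carried the markers of their label: LIN28B stood at 19.6 to 28.8 FPKM and VIM at 40.5 to 50.3 over the 12 libraries. PTPRC, ALB, PECAM1, HBB and KRT5, markers of blood, liver, endothelium and skin, were at most 0.121 FPKM, and COL1A1 was at 2.89 to 4.22.

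Levels between genes were compared as FPKM, which is scaled by gene length and library size. In DMSO the median member stood at 235 FPKM, 61 members were at 100 FPKM or more, and 35 of the 100 genes with the highest FPKM were members. The large subunit genes had a median of 235 FPKM and the small subunit genes 230. The 5 highest were RPS2 (1540 ± 64.0 FPKM, SD, n = 3), RPL8 (882 ± 34.5), RPL41 (851 ± 40.4), RPS4X (819 ± 64.8) and RPL7A (713 ± 7.49). RPS2 stood apart at the top, while RPL41 and RPL8 overlapped in their replicates and RPS4X lay within the SD of RPL41. Scaling by the length of the principal transcript in place of all exons kept much of this order (Spearman's rho 0.91 over 83 genes, a description), with RPS2 still first, then RPS18, RPL8, RPL7A and RPSA. RPL41 encodes the smallest protein of the ribosome, and RPS4X is the X-linked copy of its gene pair.

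The members below, of known substructure or role, stood at 223 to 624 FPKM in DMSO, most of them above the member median of 235. RPLP0, RPLP1 and RPLP2, which make the stalk that recruits translation factors, stood at 407 ± 32.1, 373 ± 14.04 and 318 ± 8.64 FPKM (SD, n = 3) in DMSO. RPSA, also known as a laminin receptor precursor, stood at 520 ± 51.4, and RPS6, the substrate of the S6 kinases, at 624 ± 20.02. RPL5 (441 ± 21.6) was above RPL11 (239 ± 6.28), its partner in the 5S rRNA particle, by more than their spread. RPS3, at the mRNA entry site, was at 237 ± 8.59, RPS27A at 223 ± 12.5, and RPL10, which joins the large subunit late, at 343 ± 11.95.

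**Figure D1:**
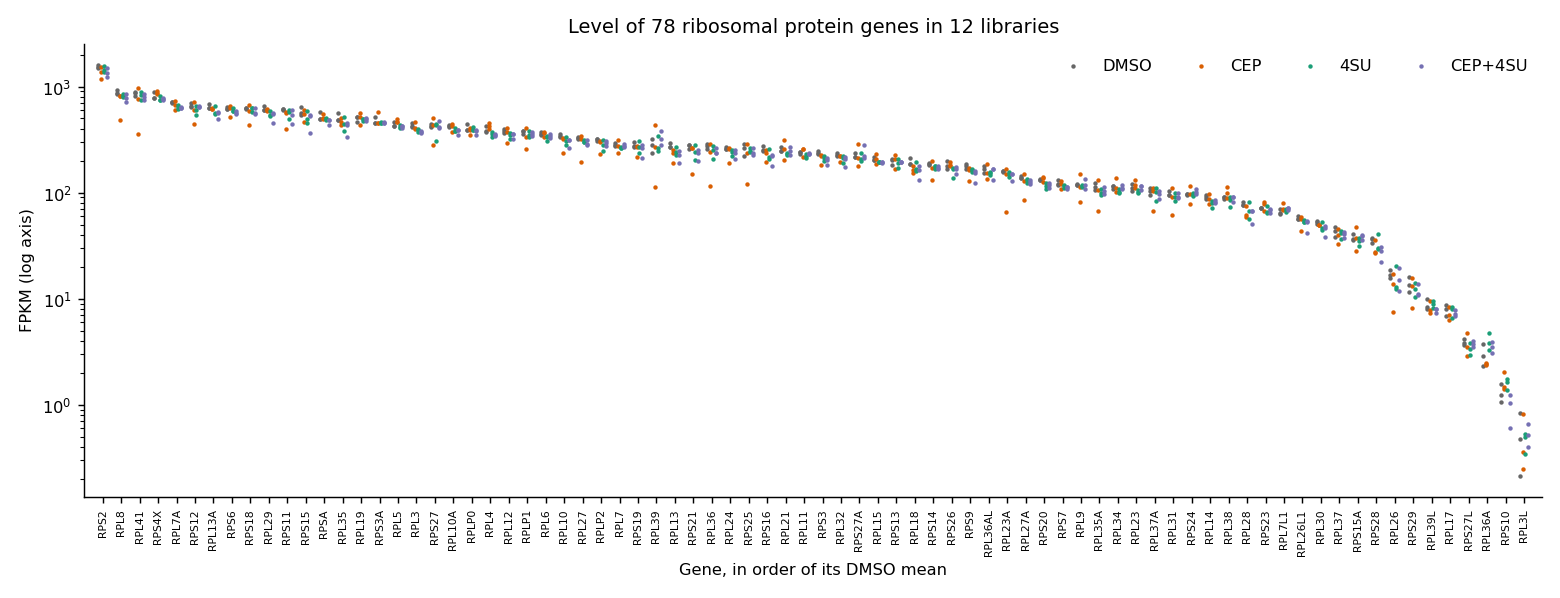
Level of 78 of the ribosomal protein genes in the 12 libraries (vertical axis, FPKM on a log scale; horizontal axis, genes in order of their DMSO mean; 1 point a library, coloured by group). RPS2 is highest at 1540 FPKM in DMSO and RPL3L lowest at 0.509, and single low points belong to CEP replicate 2, as for RPL39 and RPL41. RPL10L, with 0 counts throughout, is among the genes not drawn.

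10 members stood under 20 FPKM in DMSO, among them paralogs of abundant members and genes that share exons with another gene. Some low values also depended on the length used. RPS29 stood at 13.6 FPKM with 9845 bases of exons, and at 200 when scaled by its principal transcript of 677 bases. RPL10L, a retrocopy of RPL10 used in the testis, had 0 counts in all 12 libraries. RPL3L, the muscle paralog of RPL3, stood at 0.509 ± 0.315 FPKM beside 430 ± 19.5 for RPL3. RPS27L stood at 3.89 ± 0.281 beside 426 ± 15.9 for RPS27, and RPL39L at 8.75 ± 0.991 beside 278 ± 40.6 for RPL39.

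In 2 of the 7 paralog pairs the gene with the added letter was the higher. RPL36AL stood at 166 ± 12.4 FPKM and RPL36A at 2.99 ± 0.729. RPL26L1 stood at 57.6 ± 2.04 and RPL26 at 17.0 ± 1.49. The size of both gaps depended on the length used. Scaled by the principal transcript, RPL36AL and RPL36A stood at 167 and 27.9 in DMSO, and RPL26L1 and RPL26 at 91.1 and 49.4. RPL7L1 was at 65.5 ± 4.01 beside 283 ± 9.41 for RPL7. RPS10 (1.29 ± 0.262), RPL36A, RPL17 (7.86 ± 0.954) and RPL26 share part of their exons with another gene on the same strand: 39.4% of the exon length of RPS10 lies in RPS10-NUDT3, 24.8% of that of RPL17 in RPL17-C18orf32, 8.4% of that of RPL36A in RPL36A-HNRNPH2 and 14.3% of that of RPL26 in AC135178.2. The percents are of all exons together, 2358, 2466, 3964 and 2513 bases for RPS10, RPL17, RPL36A and RPL26. The principal transcripts of these members are shorter, at 781, 859, 429 and 870 bases. Those 4 partner genes held 30, 15, 3 and 0 counts over all libraries. Whether the counter dropped reads that fall in both genes was not tested, and the levels of these 4 members are uncertain.

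The genes lie on 21 chromosomes, and 28 of them carry 60 small nucleolar RNA genes within their bounds. Near-identical copies made other members uncertain too. The annotation lists 1122 pseudogenes of 76 members, with most (91) for RPL23A, and 595 of them had 0 counts in all libraries. RPS2P5 held 198275 counts beside 829137 for RPS2. RPS28P7 held 61882 counts beside 16155 for RPS28, a parent gene with fewer counts than its copy. Summing every pseudogene with its member left the median log2 fold change of the members with CEP+4SU at -0.14, against -0.14 without the sum.

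Fold changes were tested with edgeR's quasi-likelihood test over all 12 libraries and the 17729 genes that passed a minimum on counts, with Benjamini-Hochberg adjustment over all of these genes, and a call needed an adjusted p of 0.05 or less. 82 members were tested, all but RPL10L. Positive log2 values mean higher with the treatment. The 3 treated groups share the DMSO libraries, so their results are not independent of each other.

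CEP alone called 0 of 82 members at an adjusted p of 0.05, where 0.0564% of all genes were called, and DESeq2, which adjusts over the genes that pass its own filter, called 0 of the 78 members it kept (2.63% of all genes it kept). At an unadjusted p under 0.05 edgeR found 9 members lower (8.77% of all genes were lower at that p) and 1 higher (9.79%). The log2 fold change was under 0 for 63 members (50.6% of all genes), with a median of -0.09 beside 0.00 for all genes. In 11 members each of the 3 CEP libraries was below each DMSO library (10.1% of all genes), and in 0 members each was above (13.5%).

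The members with the smallest p for CEP, RPL13, RPL8 and RPL18, were lowest in CEP replicate 2. RPL13, a large subunit protein, was at 1819, 1660 and 1673 CPM (counts scaled to the TMM-adjusted library size) in DMSO and at 1575, 1186 and 1484 CPM with CEP, so the groups did not overlap. Its log2 fold change was -0.28 ± 0.10 (SE, edgeR adjusted p = 0.191). RPL8, which binds near the peptidyl transferase centre, was at 1852, 1897 and 2011 CPM in DMSO and at 1793, 1061 and 1792 with CEP, a log2 fold change of -0.31 ± 0.13 (SE, adjusted p = 0.223). RPL18 changed by -0.24 ± 0.10 (SE, adjusted p = 0.229). RPL7L1, a paralog with a role in making the ribosome, was the member higher at an unadjusted p under 0.05, at 550, 491 and 507 CPM in DMSO and 554, 635 and 544 with CEP (log2 fold change 0.16 ± 0.07, SE, adjusted p = 0.24). Its highest value came from the same library in which most members were lowest.

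Over the 82 members, the median log2 difference from the DMSO mean was -0.04 in CEP replicate 1, -0.32 in CEP replicate 2 and 0.08 in CEP replicate 3. In CEP replicate 2 71 members lay below the DMSO mean, with quartiles of -0.53 and -0.14, while the median of all genes there was -0.01. RPL41 shows the spread: it was at 882, 945 and 974 CPM in DMSO and at 848, 390 and 1064 CPM with CEP. RPL39, another very short protein of the large subunit, was at 579, 247 and 940 CPM in the 3 CEP libraries, below and above every DMSO value (513, 600 and 692). Without CEP replicate 2 the median log2 fold change of the members with CEP was 0.02, so 1 library sets the direction of that median. The 21 members with a principal transcript under 750 bases had a median difference of -0.39 in that library and the other 61 members -0.27.

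4SU alone called 0 members at an adjusted p of 0.05 with edgeR (0.00564% of all genes) and 0 of 74 with DESeq2 (0.425%). With no adjustment, 9 members were lower at a p under 0.05 (3.72% of all genes) and 1, RPL36A, was higher (2.78%). The log2 fold change was under 0 for 77 of 82 members (51.8% of all genes), with a median of -0.13 and quartiles of -0.16 and -0.09, beside a median of -0.01 for all genes. Leaving out 1 library at a time moved the member median between -0.15 (without 4SU replicate 1) and -0.07 (without 4SU replicate 2). In 28 members each 4SU library was below each DMSO library (10.3% of all genes), and in 0 each was above (7.58%). Every 4SU library had a member median below 0: -0.06, -0.18 and -0.10 in replicates 1, 2 and 3. The interquartile range of the members was narrow, so most of them lay close to that median. The 28 genes include RPL3, RPL4, RPL5, RPL7, RPL7A, RPL8, RPL11, RPS3, RPS7, RPS14 and RPS20.

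The members with the smallest p for 4SU were RPS20, RPL14 and RPL3. RPS20, a small subunit head protein, was at 401, 401 and 407 CPM in DMSO and at 370, 327 and 349 CPM with 4SU, without overlap (log2 fold change -0.21 ± 0.07, SE, adjusted p = 0.671). RPL14 was at 759, 783 and 825 CPM in DMSO and at 626, 689 and 716 with 4SU (-0.22 ± 0.08, adjusted p = 0.688). RPL3, which forms part of the peptidyl transferase region, was at 2181, 2031 and 2022 CPM in DMSO and at 1906, 1879 and 1780 with 4SU (-0.16 ± 0.07, adjusted p = 0.741).

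CEP+4SU called 0 members with edgeR at an adjusted p of 0.05, where 1.64% of all genes were called, while DESeq2 called 11 of 80 members (13.8%), all lower, where it called 10.6% of all genes. They include RPL3, RPL13, RPL13A, RPL18, RPL29, RPL35, RPS3, RPS16 and RPS28. At an unadjusted p under 0.05 edgeR found 23 members lower (10.8% of all genes) and 0 higher (10.5%). The log2 fold change was under 0 for 72 members (50.0% of all genes), with a median of -0.14 beside 0.00 for all genes. In 41 members each CEP+4SU library was below each DMSO library (14.6% of all genes), and in 0 each was above (14.1%). The library medians of the members were -0.07, -0.19 and -0.12. Without CEP+4SU replicate 2 the median was -0.10, so its direction did not rest on that library. Leaving out CEP+4SU replicate 1 raised the edgeR calls to 4 (4.88% of members, beside 4.42% of all genes) and leaving out CEP replicate 2 raised them to 2 (2.44% beside 3.52%), all of them lower.

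RPL13A and RPL29 had the smallest p values with CEP+4SU. RPL13A, a large subunit protein also known as a translational repressor in the interferon response, was at 1630, 1512 and 1497 CPM in DMSO and at 1344, 1194 and 1372 CPM with CEP+4SU (log2 fold change -0.25 ± 0.07, SE, adjusted p = 0.0820). RPL29, whose start is among those shown above, was at 1353, 1249 and 1266 CPM in DMSO and at 1170, 940 and 1134 with CEP+4SU (-0.25 ± 0.08, adjusted p = 0.0827). For both genes the groups did not overlap, and the lowest value came from CEP+4SU replicate 2.

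Among 11 members followed for a known role or substructure, 0 were called by edgeR with CEP+4SU, while DESeq2 called RPS3. RPS3, a protein of the mRNA entry channel that also takes part in DNA repair, was at 1461, 1361 and 1409 CPM in DMSO and at 1266, 1091 and 1199 CPM with CEP+4SU, without overlap (log2 fold change -0.25 ± 0.08, SE, adjusted p = 0.0940). RPS6 was at 1766, 1678 and 1678 CPM in DMSO and at 1601, 1543 and 1517 with CEP+4SU, and RPSA at 2296, 1944 and 1958 in DMSO and at 1901, 1741 and 1911. For both genes the groups did not overlap, with log2 fold changes of -0.14 and -0.16 that were not called (adjusted p = 0.318 and 0.207).

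Values of the stalk genes RPLP0, RPLP1 and RPLP2 were -0.12, -0.07 and -0.12 on the log2 scale with CEP+4SU, and that of RPL10 was -0.20. The MDM2-binding pair RPL5 and RPL11 stood at -0.08 and -0.04, and RPS27A, the ubiquitin fusion, at 0.09 (-0.04 without CEP+4SU replicate 2). RPL39 had the highest value of all members with CEP+4SU, 0.23 ± 0.27 (SE), less than its error. Its spread within groups was the widest of the members, a pooled SD of 0.526 on the log2 scale, beside a median of 0.159 over the members and 0.178 over all genes tested.

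**Figure D2:**
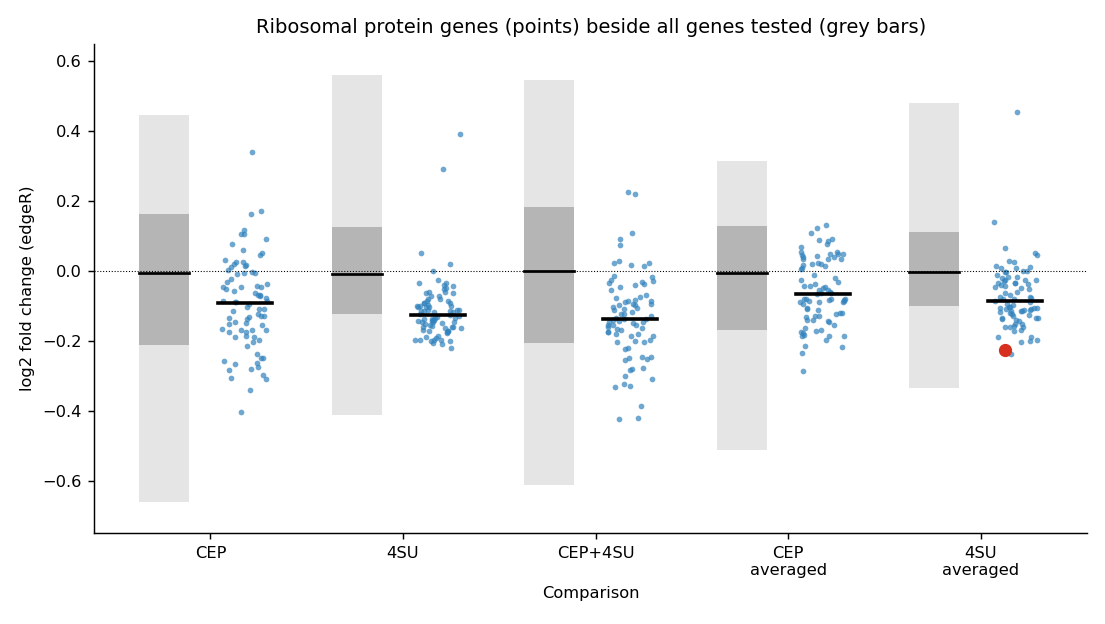
Log2 fold change (vertical axis, edgeR) of the 82 tested members (points, with their median as a black line) in 5 comparisons (horizontal axis), beside all 17729 genes tested (grey bars: pale, 5th to 95th percentile; dark, quartiles; line, median). The member medians lie between -0.06 and -0.14, the medians of all genes near 0, and the 1 red point is RPL4, called for 4SU averaged over CEP.

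Averaging each agent over the presence of the other used all 12 libraries. For CEP averaged over 4SU, edgeR called 0 members (0.276% of all genes) and DESeq2 called 2 of 78 (2.56%), RPL13 and RPS28, both lower, where it called 15.6% of all genes. At an unadjusted p under 0.05 edgeR found 9 members lower (10.8% of all genes) and 2 higher (13.5%), and the log2 fold change was under 0 for 55 members (51.1% of all genes), with a median of -0.06. In 0 members were the 6 libraries with CEP all below the 6 without (0.513% of all genes), and in 0 were they all above (1.21%). RPL13 was at -0.21 ± 0.07 (SE, adjusted p = 0.0934) and RPS28 at -0.29 ± 0.10 (adjusted p = 0.0977). With CEP replicate 2 and CEP+4SU replicate 2 both left out the median was 0.00, with 40 members under 0. Leaving out CEP replicate 1 raised the edgeR calls to 3 (3.66% of members, beside 11.8% of all genes) and leaving out CEP+4SU replicate 1 raised them to 4 (4.88% beside 6.16%).

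For 4SU averaged over CEP, RPL4 fell and was the only member called by edgeR (0.558% of all genes were called). RPL4 encodes a large subunit protein that lines the exit tunnel. It was at 2435, 2179 and 2126 CPM in DMSO, at 2297, 2554 and 2410 with CEP, at 2098, 2024 and 1909 with 4SU and at 1935, 1970 and 2020 with CEP+4SU. All 6 libraries with 4SU were below all 6 without it. The log2 fold change was -0.23 ± 0.05 (SE, adjusted p = 0.0342, edgeR), a change of -14.6%. The call was also made by DESeq2 (adjusted p = 0.0022) and with CEP replicate 2 and CEP+4SU replicate 2 both left out (0.0280). It was lost without DMSO replicate 1 (0.130), DMSO replicate 2 (0.0779), DMSO replicate 3 (0.0670), 4SU replicate 2 (0.117), 4SU replicate 3 (0.164), CEP+4SU replicate 1 (0.0808) or CEP+4SU replicate 3 (0.0745), and with upper-quartile scaling (0.0603), library size alone (0.0842) or limma on log2(FPKM + 1) (0.1505). The direction was the same in each of these fits.

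Most other members had a value on the same side as RPL4, and 0 of them passed the edgeR test. The log2 fold change for 4SU averaged over CEP was under 0 for 70 members (50.7% of all genes), with a median of -0.09. Leaving out 1 library at a time moved that median between -0.13 (without CEP replicate 2) and -0.04 (without CEP replicate 3). Before adjustment, 20 members were lower at a p under 0.05 (6.95% of all genes) and 1, RPL36A, was higher (5.66%). In 5 members the 6 libraries with 4SU were all below the 6 without (0.863% of all genes), and in 0 were they all above (0.491%). Beside RPL4 these were RPS20, RPL3, RPL29 and RPL5, named here after their values were seen.

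RPS20 with both agents was at 360, 335 and 373 CPM, under its CEP values of 385, 413 and 422 (4SU averaged, log2 fold change -0.20 ± 0.05, SE, adjusted p = 0.0721). RPL3 was at -0.17 ± 0.05 (adjusted p = 0.0993) and RPL29 at -0.19 ± 0.05 (adjusted p = 0.124). RPL5 had the smallest spread within groups of all members, a pooled SD of 0.0532 on the log2 scale, and was at -0.14 ± 0.04 (adjusted p = 0.156). DESeq2 called 4 of 81 members (4.94%, beside 2.6% of all genes): RPL3, RPL4 and RPS20 lower and RPL36A higher.

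RPL36A, the counterpart of RPL36AL, had the highest value of the members in this comparison. It was at 9.33, 15.1 and 11.4 CPM in DMSO, at 9.64, 9.90 and 9.58 with CEP, at 13.0, 18.7 and 15.3 with 4SU and at 13.9, 15.5 and 12.3 with CEP+4SU. The values with and without 4SU overlapped through DMSO replicate 2. The log2 fold change for 4SU averaged over CEP was 0.45 ± 0.12 (SE, adjusted p = 0.0936, edgeR). Its level is among those made uncertain by shared exons.

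The interaction, which asks whether the response to CEP differs when 4SU is present, called 0 members with edgeR (0.0% of all genes) and 0 with DESeq2. At an unadjusted p under 0.05, 1 member, RPS10, was lower (1.34% of all genes) and 0 were higher (1.29%). RPS10 was at 2.95, 3.74 and 2.53 CPM in DMSO, at 3.35, 4.83 and 3.51 with CEP, at 3.23, 4.13 and 3.91 with 4SU and at 2.47, 1.44 and 2.96 with CEP+4SU. The interaction was -1.06 ± 0.38 (SE, adjusted p = 1.00, edgeR). Its lowest value came from CEP+4SU replicate 2, the library in which the readthrough gene RPS10-NUDT3 had 15 of its 30 counts. RPS12 (0.29 ± 0.16) and RPLP2 (0.24 ± 0.14) followed in order of p, both with an adjusted p of 1.00. The median of the members was 0.08, and -0.04 without CEP replicate 2.

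The medians of both subunits were close. The median log2 fold change was -0.09 for the large and -0.08 for the small subunit genes with CEP, -0.13 and -0.11 with 4SU, and -0.13 and -0.15 with CEP+4SU. The medians of members with and without the start motif were also close in the 4SU comparison: -0.12 for the 45 members that met the rule and -0.12 for the 20 tested members that did not. With CEP the medians were -0.14 and -0.05, and with CEP+4SU -0.13 and -0.15. The difference between these sets was not tested.

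The fold changes of the members went with the base composition of their transcripts. Over the 82 members, which share libraries and are not independent, Pearson's r between the GC content of the principal transcript and the log2 fold change was -0.42 with CEP, -0.23 with 4SU and -0.60 with CEP+4SU (Spearman's rho -0.47, -0.36 and -0.64). With CEP+4SU the median was -0.08 for the 28 members of lowest GC (40.6 to 47.5%), -0.12 for the 27 in the middle and -0.25 for the 27 of highest GC (52.1 to 64.6%). In single libraries the correlation of GC with the difference from the DMSO mean was strongest in CEP+4SU replicate 2 (r = -0.64) and CEP replicate 3 (r = -0.58), and it was 0.27 in 4SU replicate 1. RPL13 and RPS28, which were among the lowest with CEP+4SU, had a GC content of 56.2 and 53.8%. With the GC trend of the tested genes other than the members removed, the median of the members with CEP+4SU was -0.13. In that fit RPL4 was the 1 member called with CEP+4SU (1.22%, beside 1.24% of all genes). For 4SU averaged over CEP 7 members were called (8.54%, beside 3.59% of all genes), among them RPL4, RPL5, RPL29, RPS20 and RPS26, which were lower, and RPL36A, which was higher. What part base composition has in the fold changes of single members was not tested.

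Related gene lists give these medians a scale. Of all genes, edgeR called 0.0564% with CEP, 0.00564% with 4SU and 1.64% with CEP+4SU. At an unadjusted p under 0.05, 8.77, 3.72 and 10.8% of all genes were lower and 9.79, 2.78 and 10.5% higher. The 78 genes for mitochondrial ribosomal proteins had median log2 fold changes of -0.03 with CEP, -0.03 with 4SU and -0.02 with CEP+4SU, with 0 called by edgeR in these comparisons, and at an unadjusted p under 0.05, 8, 2 and 10 lower and 5, 0 and 4 higher. The 53 tested initiation factor genes were at 0.09, -0.04 and 0.06, with 0, 0 and 3 called, all higher. The 3 were EIF2AK2, EIF4A2 and EIF5, of which EIF2AK2 encodes a kinase and entered the list by its symbol. Before adjustment 10, 3 and 8 of the 53 were higher and 3, 2 and 7 lower. The 24 tested genes of a list of other TOP mRNAs, such as elongation factors and PABPC1, were at 0.04, -0.13 and -0.09, beside -0.09, -0.13 and -0.14 for the members, whose CEP median was 0.02 without CEP replicate 2. With CEP or 4SU alone 0 of the 24 were called by edgeR, and before adjustment 6 and 0 were higher and 1 and 6 lower at a p under 0.05.

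Within that list edgeR called 3 of the 24 tested genes for 4SU averaged over CEP, all lower. In that comparison 0.558% of all genes and 1.22% of the members were called. For 4SU averaged over CEP, HNRNPA1, an RNA-binding protein of splicing, fell by 0.27 on the log2 scale (adjusted p = 0.0089, edgeR). PABPC1, the poly(A)-binding protein, fell by 0.25 (adjusted p = 0.0178), and EIF3L, a subunit of initiation factor 3, fell by 0.23 (adjusted p = 0.0345). Over 24 other fits the call of HNRNPA1 was lost in 2 (adjusted p up to 0.0696), that of PABPC1 in 9 (up to 0.113) and that of EIF3L in 13 (up to 0.168). With CEP+4SU only HNRNPA1 of the list was called (log2 fold change -0.25, adjusted p = 0.0489), and that call was lost in 10 of 25 other fits (adjusted p up to 0.166). Libraries whose removal ended it were DMSO replicates 1, 2 and 3, 4SU replicates 2 and 3, and CEP+4SU replicates 2 and 3. The call of PABPC1 was lost without any 1 of DMSO replicates 1, 2 and 3, 4SU replicates 2 and 3 or CEP+4SU replicate 1, and that of EIF3L without any 1 of these, CEP replicate 2, 4SU replicate 1 or CEP+4SU replicate 3.

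Genes that act on the ribosomal proteins were read as short lists. Of 18 regulators of TOP mRNAs and 14 chaperones and escorts of ribosomal proteins, 0 were called by edgeR in any of the 6 comparisons. At most 1.64% of all genes were called in a comparison, so lists of this size would hold few calls. With CEP+4SU, 3 of the 18 regulators were higher and 4 lower at an unadjusted p under 0.05. Of the 14 chaperones, 3 were higher and 2 lower, and of all genes 10.5% were higher and 10.8% lower. Of 9 transcription factors of ribosomal protein genes, MYC fell with CEP+4SU (log2 fold change -0.40, adjusted p = 0.0290) and for CEP averaged over 4SU (-0.33, adjusted p = 0.0156). MYC was at 253, 262 and 274 CPM in DMSO and at 223, 184 and 192 CPM with CEP+4SU, without overlap. The MYC call with CEP+4SU was lost in 8 of 25 other fits (adjusted p up to 0.134), among them those without DMSO replicate 1, 2 or 3, 4SU replicate 3, or CEP+4SU replicate 2 or 3. The call for CEP averaged over 4SU was lost in 8 of 24 (up to 0.0763), among them those without DMSO replicate 2 or 3, CEP replicate 3, 4SU replicate 1 or 3, or CEP+4SU replicate 3. RACK1 is a ribosome-bound scaffold, and FAU encodes a ribosomal protein fused to a ubiquitin-like protein. RACK1 was at -0.25 with CEP+4SU (adjusted p = 0.0785) and -0.20 for 4SU averaged over CEP (adjusted p = 0.0922), and FAU (-0.18, adjusted p = 0.249) was not called with CEP+4SU.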

How the data were processed

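The authors deposited raw read counts per gene and FPKM values for 12 libraries of poly(A) RNA sequenced with paired ends. According to the study's methods and the submitters' processing notes, reads were cleaned of adapters and low quality, aligned with HISAT2 2.0.5 to GRCh38 and counted with featureCounts 1.5.0-p3; the strand setting and the treatment of shared reads are not given in the sources used here. Gene ends, lengths and overlaps came from GENCODE 29, and the table's gene length was the union of exons for all 83 members. A further table with 1 FPKM value per group was not used. The authors' threshold of 0.5 on the adjusted p was run as an alternative.

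From the counts, edgeR 4.0.16 (R 4.3.3) was run with TMM scaling, filterByExpr (minimum count 10, minimum total 15), 1 mean per group and the quasi-likelihood test, with Benjamini-Hochberg adjustment over 17729 genes; SE is the log2 fold change divided by the square root of F. CPM used TMM library sizes. DESeq2 1.42.0 and limma 3.58.1 served as alternatives. The common biological coefficient of variation was 0.114. Replicates differed by more than counting noise (chi-square per degree of freedom 3.98 to 17.0). Members, lists and tests were chosen with earlier results of these data known. Named members were those called in any comparison, the 3 of smallest p in each, the 5 highest and 5 lowest in DMSO, 7 paralog pairs and 11 genes of known role; GC, the left-out pair of libraries and lengths of principal transcripts (75 of 83 APPRIS principal) were added after seeing the data. Some genes that these rules select are not reported here.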

Additional observations from a re-analysis of the deposited data

How the results depend on the processing

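The number of called members depended on the processing, and the direction of their medians mostly did not. For CEP, 4SU, CEP+4SU, CEP averaged over 4SU, 4SU averaged over CEP and the interaction, edgeR called 0, 0, 0, 0, 1 and 0 members. An adjusted p of 0.5 gave 40, 0, 44, 35, 29 and 0 of 82 members (48.8, 0, 53.7, 42.7, 35.4 and 0%), beside 44.4, 0.107, 47.0, 52.3, 20.5 and 0% of all genes. No filter on low counts gave 9, 0, 13, 10, 3 and 0 (11, 0, 15.9, 12.2, 3.66 and 0%), beside 1.86, 0.115, 3.46, 4.06, 0.873 and 0.0421% of 35634 genes, which include many of few counts. DESeq2 gave 0, 0, 11, 2, 4 and 0. For 4SU averaged over CEP, upper-quartile scaling, library size alone and limma on log2(FPKM + 1) or log2(FPKM + 0.1) each gave 0, removal of the GC trend gave 7, and leaving out CEP replicate 2 and CEP+4SU replicate 2 together gave 4 (4.88%, beside 1.23% of all genes). For CEP+4SU, a fit to the 6 libraries compared gave 2 (2.44%, beside 3.36% of all genes) and removal of the GC trend 1. Leaving out 1 library at a time gave 0 to 4 calls for CEP+4SU, 0 to 4 for CEP averaged over 4SU and 0 to 1 for 4SU averaged over CEP. In the same fits the median log2 fold change ran from -0.19 to 0.0173 for CEP and from -0.0379 to 0.12 for the interaction; the high value for CEP and the low value for the interaction came without CEP replicate 2. With both replicate 2 libraries left out the median for CEP was 0.0174. FAU with CEP+4SU turned from -0.18 to 0.0344 and RPLP2 from -0.12 to 0.0905 once the GC trend was removed, and RPL11 from -0.04 to 0.0248 once a length trend was removed; RPS27A with CEP+4SU ran from -0.0353 (without CEP+4SU replicate 2) to 0.153 (without CEP+4SU replicate 3) and was -0.0355 with both replicate 2 libraries left out. None of these values was called, and the cause was not tested.

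Replicate numbers shared between groups were checked for pairing. Of 18 same-numbered pairs of libraries in different groups, 5 had deviations correlated above 0.1 (median 0.02, against -0.02 for other pairs). 9 of 12 libraries correlated best with their own number, a hint from the data and not from the design. Deviations were taken from the mean of 3 libraries. A positive correlation for 1 number thus lowers those with other numbers, and these counts are not independent. Pairs with a DMSO library lay between -0.04 and 0.02. A fit with the replicate number as a block called 2, 0, 14, 8, 5 and 0 members in the order above (2.44, 0, 17.1, 9.76, 6.10 and 0%), beside 4.40, 0.0451, 9.40, 12.8, 1.90 and 0% of all genes. With 3 libraries a group, members listed as not called are not shown to be unchanged.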
